A study of Homo sapiens with 11 samples.

Results

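The miR-193 and miR-365 clusters are 2 stretches of the human genome, on chromosome 16 and on chromosome 17, that each encode a miR-193 and a miR-365 hairpin. Their mature products were taken by name from small RNA-seq tables of 6 tumour cell lines, which gave 7 members (hsa-miR-193b-3p, hsa-miR-193b-5p and hsa-miR-365a-3p from chromosome 16, and hsa-miR-193a-5p, hsa-miR-193a-3p, hsa-miR-365b-5p and hsa-miR-365b-3p from chromosome 17, written without the species prefix from here on) out of 2588 mature miRNA names. The lines were A-549 (lung adenocarcinoma), ES-2 (ovarian clear cell adenocarcinoma), MV3 (amelanotic melanoma), PANC-1 (pancreatic ductal adenocarcinoma), BE(2)-C (neuroblastoma) and Hep-G2 (hepatoblastoma), all as untreated parental cells, with 2 libraries per line and 1 for PANC-1. PANC-1, MV3, A-549 and ES-2 libraries were made with the NEXTflex kit from 50 ng of RNA, those of BE(2)-C and Hep-G2 by the provider Novogene, and sequencer and read length changed along with the preparation, so that line and preparation cannot be told apart where a comparison spans both. Cells were harvested 48 h after seeding, except that the protocol gives 24 h for BE(2)-C where its sample label says 48 h.

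MicroRNAs are short RNAs cut from the 5p and 3p arms of a hairpin. An Argonaute protein holds 1 strand and uses its seed, bases 2 to 8 from the 5′ end, to find mRNAs that are then repressed. The 3p strands of miR-193a and miR-193b share a seed and have been described as growth-restraining in several tumour types, with the receptor gene KIT and the urokinase gene PLAU among their reported targets, and the chromosome 16 pair has been studied in brown fat and muscle differentiation.

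The sequences are shown because they decide which members reads can tell apart. All 7 were found in RefSeq (GRCh38.p14) and are printed 5′ to 3′ with the seed in capitals, first the products of MIR193B at chr16:14303967-14304049 and of MIR193A at chr17:31559996-31560083, both on the plus strand.
miR-193b-3p: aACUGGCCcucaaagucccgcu
miR-193a-3p: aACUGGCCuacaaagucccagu
miR-193b-5p: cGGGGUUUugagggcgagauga
miR-193a-5p: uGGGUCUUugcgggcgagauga
The 3p strands of the miR-193 paralogs shared the seed ACUGGCC and differed at 4 of 22 positions counted from the 5′ end (C9U, U10A, G20A and C21G, with the base of miR-193b first). The 5p strands also differed at 4 positions (C1U, G5U, U6C and A11C), of which 2 lie in the seed, so that they present different seeds.

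The products of MIR365A at chr16:14309285-14309371 and of MIR365B at chr17:31575411-31575521, again on the plus strand, include miR-365a-5p, which is not among the 7 members but comes from the same hairpin as miR-365a-3p.
miR-365a-3p: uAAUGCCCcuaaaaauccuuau
miR-365b-3p: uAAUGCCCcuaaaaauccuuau
miR-365b-5p: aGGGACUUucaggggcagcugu
miR-365a-5p: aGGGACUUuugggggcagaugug
The 2 miR-365-3p strands were identical at all 22 positions. The miR-365-5p strands shared the seed GGGACUU and differed outside it at 3 of 22 compared positions (U10C, G11A and A19C, with the base of miR-365a-5p first), which makes this arm the one that tells the miR-365 hairpins apart. No other RefSeq human miRNA with a name in the tables carried any of the 5 seeds of these strands.

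The 30 bases around the miR-365-3p strand in each hairpin, with the mature strand in capitals, show how little sequence separates the copies.
MIR365A, chr16:14309336-14309365: aucaUAAUGCCCCUAAAAAUCCUUAUugcu
MIR365B, chr17:31575474-31575503: gucaUAAUGCCCCUAAAAAUCCUUAUuguu
The stretch identical in both hairpins ran for 27 bases, from 3 bases before to 2 bases after the mature strand. Reads of a mature miR-365-3p therefore cannot be placed on one chromosome, and levels and differences of miR-365-3p are given below for the sum of the 2 names. The tests across all miRNAs kept the names as listed, so a count out of 6 tested members holds this strand under 2 names, and the 6 stand for 5 distinct strands.

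In GENCODE, MIR193B and MIR365A lie 5235 bases apart in an intron of the long non-coding RNA MIR193BHG. On chromosome 17, MIR193A is intergenic with an unnamed long non-coding RNA gene starting 49 bp after it, whereas MIR365B, 15327 bases further on, overlaps an exon of the long non-coding RNA MIR365BHG. Another miRNA gene, MIR4725, lies 52 bases before MIR365B in an intron of MIR365BHG.

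Between 1173902 (MV3 replicate 1) and 12137452 (Hep-G2 replicate 2) reads per library were assigned to miRNAs, and levels are given as CPM, the reads of a miRNA per 1000000 such reads. All members are 22 bases long. How evenly the preparations captured strands of different sequence was not measured, so ratios between strands compare reads. An even share of reads need not mean equal amounts of RNA. Where no read was found, up to 3 reads remain possible, equal to 0.247 to 2.56 CPM depending on the library, and this floor and the intervals below cover counting error only. In Hep-G2, 75.3% and 72.6% of the reads came from miR-148a-3p alone, and 95.05% and 94.69% from the top 5 miRNAs. In A-549, 65.03% and 64.17% came from miR-21-5p alone, and 76.23% and 76.33% from the top 5. The TMM factors (scaling factors meant to align the bulk of the miRNAs between libraries) were 0.166 and 0.217 in Hep-G2 against 1.02 to 1.87 in the other lines. By these factors plain CPM places Hep-G2 low, and TMM-scaled values are given beside the levels and calls that they turn or end. With TMM factors the median log2 difference over all miRNAs tested ran from 0 to 0.23 in pairs without BE(2)-C. It was -0.88, -0.84 and -0.71 for A-549, ES-2 and MV3 minus BE(2)-C, so the bulk was not aligned for that line. The neural miRNA miR-9-5p was highest in BE(2)-C (15870 and 17550 CPM), the liver miRNA miR-122-5p stood at 64.0 and 50.0 CPM in Hep-G2 but at 823 CPM in BE(2)-C replicate 1 against 5.96 CPM in replicate 2, and the melanocyte miRNA miR-211-5p had no read in MV3 or any other line. The CPM levels of the members in BE(2)-C are given by library for this reason, while means and limma contrasts use both libraries.

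The 7 members together made up 0.217% of the reads in PANC-1 and 0.124% and 0.144% in MV3. In A-549 they took 0.0642% and 0.0562%, in BE(2)-C 0.0342% and 0.0304%, and in ES-2 0.00932% and 0.0141%. Hep-G2 was lowest with 0.00327% and 0.00434%. The libraries of different lines did not overlap in this sum, and no test was run on it. Both the last place of Hep-G2 and the lack of overlap held for plain read shares only. With TMM factors ES-2 was lowest and the libraries of Hep-G2 and BE(2)-C overlapped.

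MiR-193b-3p, the seed-sharing 3p strand from chromosome 16, was most abundant in the neuroblastoma line. It reached 286 and 232 CPM in BE(2)-C and 148 and 105 CPM in A-549. It stood at 26.4 and 42.0 CPM in MV3, 21.0 and 25.5 CPM in Hep-G2, 20.4 CPM in PANC-1 and 8.42 and 5.66 CPM in ES-2. The 2 libraries of BE(2)-C and of A-549 lay above those of all other lines, and those of MV3, Hep-G2 and PANC-1 lay close together. This order held on CPM only, since with TMM factors Hep-G2 stood at 118 to 126 CPM, inside the range of A-549 (95.4 to 145 CPM). A-549 minus Hep-G2 was 2.38 ± 0.33 (SE) on the log2(CPM + 1) scale (limma, adjusted p = 0.000327) and -0.05 with TMM factors (adjusted p = 0.941).

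**Figure D1:**
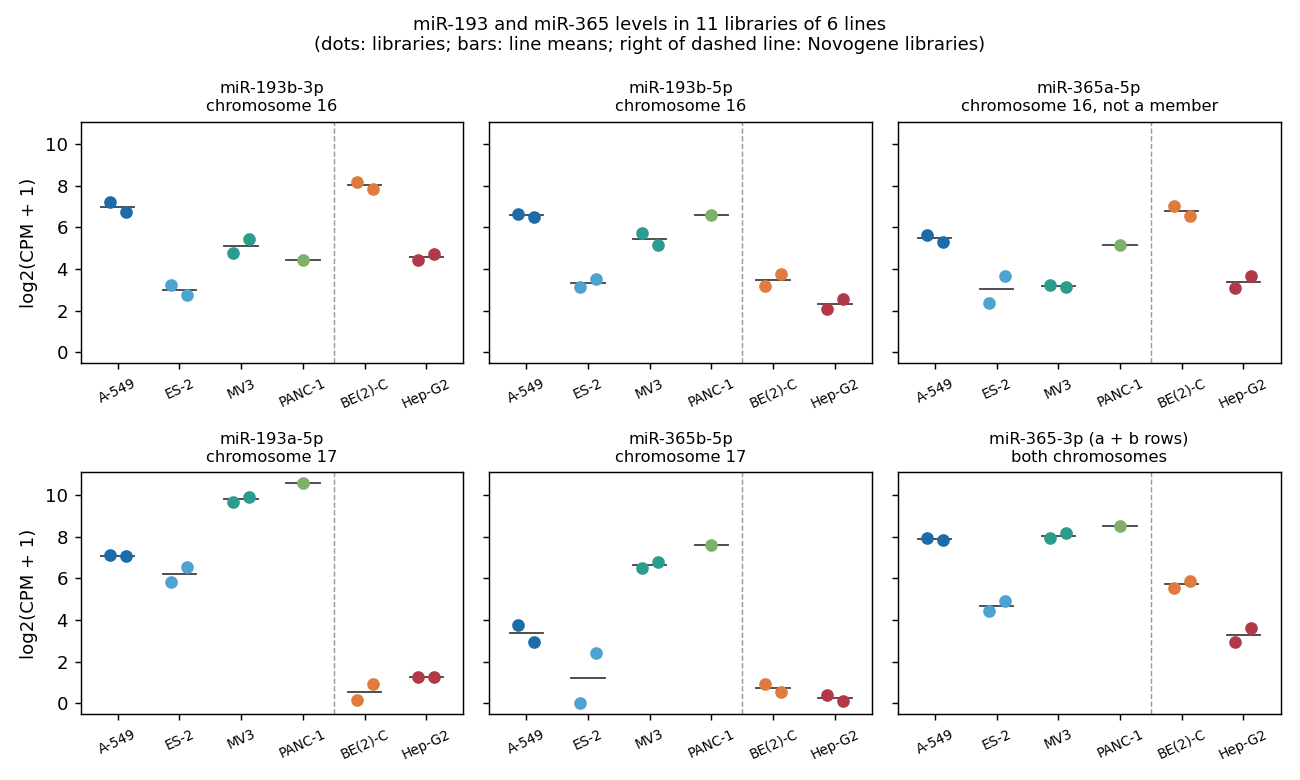
Levels of 4 members, of miR-365a-5p and of miR-365-3p (the 2 names summed) as log2(CPM + 1), with 1 dot per library, line means as bars, and the Novogene libraries right of the dashed line. MiR-193a-5p and miR-365b-5p were highest in PANC-1 and MV3 and low in BE(2)-C and Hep-G2, with the lowest dot of miR-365b-5p, at 0 reads, in ES-2, while miR-193b-3p and miR-365a-5p were highest in BE(2)-C.

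In neighbouring lines of this order, miR-193b-3p was higher in A-549 than in MV3 by 1.88 ± 0.33 (SE) on the log2(CPM + 1) scale (limma, adjusted p = 0.00213). The step from A-549 to BE(2)-C passed on CPM (adjusted p = 0.0209, limma) but spanned both preparations. It did not pass with TMM factors (0.206), without A-549 replicate 2 (0.122) or without BE(2)-C replicate 1 (0.0914). MV3 and Hep-G2 were not called as different on CPM (0.51 for MV3 minus Hep-G2, limma, adjusted p = 0.217), while with TMM factors the difference was -2.69 (adjusted p = 0.000191).

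The other strand of the same hairpin, miR-193b-5p, did not follow this order. It was highest in A-549 (98.9 and 90.7 CPM) and PANC-1 (94.6 CPM), followed by MV3 (52.8 and 34.2 CPM). BE(2)-C held 8.24 and 12.5 CPM, ES-2 7.82 and 10.5 CPM and Hep-G2 3.28 and 4.94 CPM. The libraries of BE(2)-C and ES-2 overlapped for this strand, whereas for the 3p strand BE(2)-C lay above all other lines and ES-2 below them. The last place of Hep-G2 held on CPM only. With TMM factors its mean was 21.3 CPM, while BE(2)-C averaged 6.73 CPM and ES-2 averaged 6.91 CPM, and ES-2 minus Hep-G2 turned from 0.99 to -1.50 (limma, adjusted p = 0.0411 and 0.0044).

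On chromosome 17, miR-193a-5p was the most abundant member in PANC-1, MV3 and ES-2 and nearly without reads in BE(2)-C and Hep-G2. It reached 1504 CPM in PANC-1, where it ranked 60 among all miRNAs, and 823 and 968 CPM in MV3. A-549 held 139 and 132 CPM and ES-2 56.5 and 91.9 CPM. In Hep-G2 it was covered by 17 reads in each library (1.43 and 1.40 CPM) and in BE(2)-C by 1 and 6 reads (0.133 and 0.917 CPM), so that the 2 Novogene lines sat close to the floor. No 2 lines overlapped.

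The difference of A-549 minus MV3 was -2.71 ± 0.33 (SE) on the log2(CPM + 1) scale (limma, adjusted p = 0.000337), that is higher in MV3. ES-2 was below A-549 by 0.90 ± 0.33, which missed the threshold (limma, adjusted p = 0.0565). This difference passed with TMM factors (0.015), without ES-2 replicate 2 (0.0333) and without BE(2)-C replicate 1 or 2 (0.0232 and 0.0225).

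The 3p strand of the same hairpin, miR-193a-3p, was nearly without reads. In PANC-1, all 14661 reads of the 2 arms were listed under miR-193a-5p, and the 95% exact binomial interval for that share ran from 99.975% to 100%. In MV3, 5 reads (4.26 CPM) were listed under miR-193a-3p in replicate 1 and none in replicate 2, beside 966 and 1500 reads of the 5p strand. BE(2)-C replicate 1 and both Hep-G2 libraries had 1 read each, and the remaining libraries had none. With its highest line mean at 2.13 CPM, miR-193a-3p was the only member below the level required for testing (a mean of at least 10 CPM in a line), so 6 of the 7 members were tested. Its paralog miR-193b-3p, which has the same seed, was detected in every library.

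MiR-365b-5p, the chromosome 17 strand that marks the MIR365B hairpin, was again highest in PANC-1 (194 CPM) and MV3 (90.3 and 109 CPM). A-549 held 12.7 and 6.79 CPM, and ES-2 had no read in replicate 1 and 4.36 CPM (10 reads) in replicate 2. In BE(2)-C it stood at 0.931 and 0.459 CPM (7 and 3 reads) and in Hep-G2 at 0.337 and 0.0824 CPM (4 and 1 reads). The difference of A-549 minus MV3 was -3.28 ± 0.73 (SE) on the log2(CPM + 1) scale, that is higher in MV3 (limma, adjusted p = 0.00641). ES-2, BE(2)-C and Hep-G2 could not be ordered at this depth.

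MiR-365a-5p, from the MIR365A hairpin on chromosome 16, showed another order. It was highest in BE(2)-C (129 and 94.2 CPM), followed by A-549 (48.7 and 38.8 CPM) and PANC-1 (34.9 CPM). Hep-G2 held 7.49 and 11.6 CPM, MV3 8.52 and 7.75 CPM and ES-2 4.21 and 11.8 CPM, and these 3 lines overlapped on CPM. With TMM factors they did not all overlap, and Hep-G2 stood at 45.1 to 53.5 CPM, against 4.13 to 4.67 CPM in MV3 and 3.19 to 8.89 CPM in ES-2. MV3 minus Hep-G2 was then -3.22 and ES-2 minus Hep-G2 -2.96 (limma, adjusted p = 0.000307 and 0.000481), where on CPM neither was called (-0.18 and -0.34, adjusted p = 0.807 and 0.589). With TMM factors A-549 minus Hep-G2 turned from 2.10 to -0.26 (limma, adjusted p = 0.00407 and 0.644). BE(2)-C minus Hep-G2 fell from 3.42 to 0.54 (limma, adjusted p = 0.000193 and 0.328). A-549 minus BE(2)-C passed on CPM (-1.32, limma, adjusted p = 0.0298) but not with TMM factors (-0.80, 0.137). MV3, second for miR-365b-5p, was thus among the lowest lines for miR-365a-5p with either scaling. Both lines of this contrast were made with one preparation: A-549 exceeded MV3 by 2.29 ± 0.46 (SE) for miR-365a-5p (limma, adjusted p = 0.00397), where for miR-365b-5p MV3 was the higher line.

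The summed miR-365-3p, to which both chromosomes can contribute, reached 362 CPM in PANC-1, 245 and 285 CPM in MV3 and 243 and 228 CPM in A-549. BE(2)-C held 45.9 and 58.1 CPM, ES-2 20.4 and 28.8 CPM and Hep-G2 6.65 and 11.4 CPM. MV3 and A-549 did not differ beyond their spread (A-549 minus MV3 -0.17 ± 0.30 (SE) on the log2 scale, limma with the 2 names summed, adjusted p = 0.681). The first place of PANC-1 held on CPM only. With TMM factors A-549 came first, and A-549 minus MV3 was 0.63 (limma with the 2 names summed, adjusted p = 0.0742). A-549 exceeded BE(2)-C (adjusted p = 0.000262, limma) across the preparations, and ES-2 minus BE(2)-C was -1.06 on the log2 scale (0.0117). Hep-G2 was lowest on CPM, and ES-2 minus Hep-G2 turned from 1.38 to -1.27 with TMM factors (limma, adjusted p = 0.00393 and 0.00239). The fit with summed names was chosen after the data were seen.

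The tables list miR-365-3p reads under 2 names although the strands are identical. Of 6418 reads in all libraries, 3208 were listed under miR-365a-3p and 3210 under miR-365b-3p, a share of 49.98% for the first (95% exact binomial interval 48.8% to 51.2%). The interval included 50% in 9 of 11 libraries. The exceptions were A-549 replicate 1 with 57.4% (53.5% to 61.2%) and PANC-1 with 48.3% (46.6% to 49.96%). In BE(2)-C, where miR-365a-5p outnumbered miR-365b-5p by 967 to 7 and 616 to 3 reads, the 3p names were divided at 47.5% and 52.4%. In MV3, where miR-365b-5p outnumbered miR-365a-5p by 106 to 10 and 169 to 12 reads, the shares were 47.6% and 51.2%. The libraries whose interval left out 50% both leaned towards the name that led among their 5p strands, of which miR-365a-5p made up 79.3% in A-549 replicate 1 and 15.2% in PANC-1. Of the others, ES-2 replicate 1 (38.2%), MV3 replicate 2, BE(2)-C replicate 1 and Hep-G2 replicate 1 (49.4%) leaned away from their leading 5p name. The rest leaned towards it, and the intervals were not adjusted for the number of libraries. No test of the relation between the 3p and the 5p division was run.

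**Figure D2:**
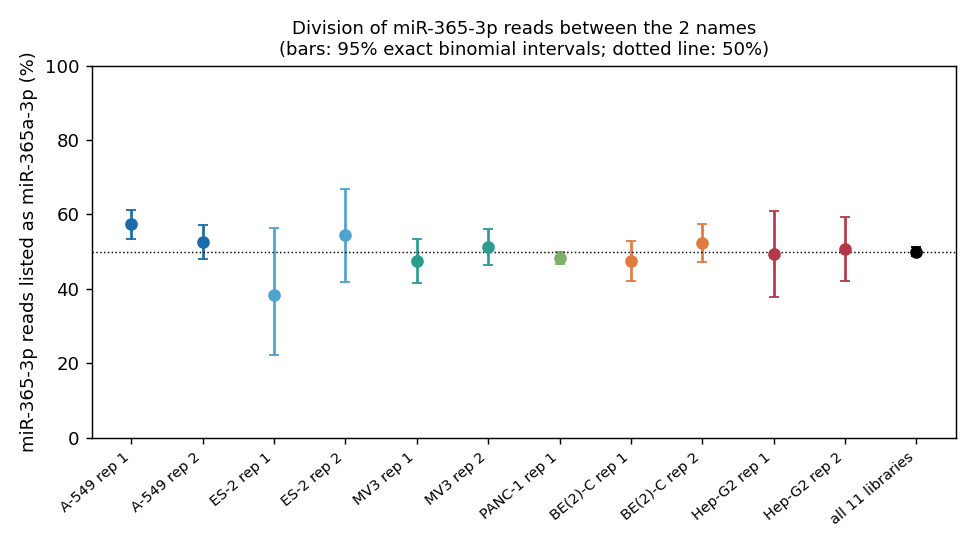
Share of miR-365-3p reads listed under miR-365a-3p (y axis, percent) in each of the 11 libraries and over all of them, with 95% exact binomial intervals as bars and a dotted line at 50%. The shares run from 38.2% (34 reads, ES-2 replicate 1) to 57.4% (A-549 replicate 1), and the share over all libraries is 49.98%.

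The chromosome 16 and chromosome 17 clusters were then set against each other within each library, as the log2 ratio of miR-193b-3p plus miR-193b-5p over miR-193a-3p, miR-193a-5p and miR-365b-5p (each sum in CPM plus 1). This ratio does not depend on how libraries are scaled, apart from the pseudocount. It was 7.07 and 6.69 in BE(2)-C and 3.15 and 3.62 in Hep-G2, and 0.70 and 0.50 in A-549. It was negative in ES-2 (-1.74 and -2.51), MV3 (-3.52 and -3.80) and PANC-1 (-3.87). No 2 lines overlapped, with PANC-1 next to MV3. Since the ratio sums chosen members, it carries no p-value.

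Expressed as a share of the reads of these 5 strands, chromosome 16 supplied 99.6% and 99.4% in BE(2)-C (2215 of 2224 and 1601 of 1610 reads) and 92.9% and 95.1% in Hep-G2. A-549 was nearest to an even division with 62.0% and 58.6%. In ES-2 the share was 22.3% and 14.3%, in MV3 7.95% and 6.60% and in PANC-1 6.34%. The 95% exact binomial intervals were widest in ES-2, from 15.2% to 30.8% and from 10.3% to 19.2%, where only 121 and 258 reads were available. The 2 lines with the highest chromosome 16 share are also the 2 Novogene lines, and line and preparation cannot be told apart there. Within the NEXTflex preparation the line means still ran from 0.60 ± 0.15 (SD, n = 2) in A-549 to -3.66 ± 0.20 (SD, n = 2) in MV3 and -3.87 in the single library of PANC-1.

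**Figure D3:**
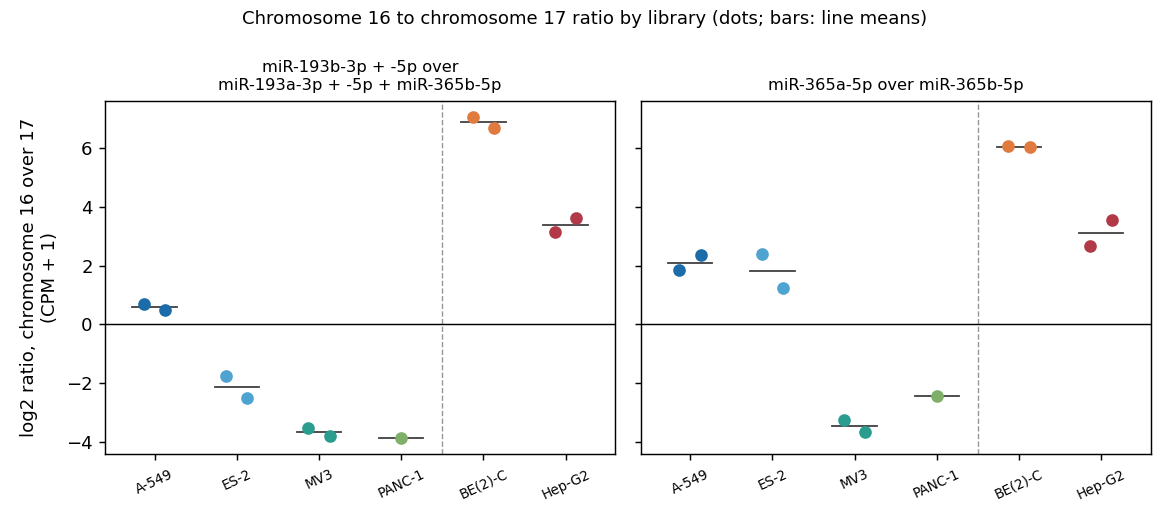
Log2 ratio of chromosome 16 over chromosome 17 products by library (dots, with line means as bars), from the miR-193 strands and miR-365b-5p on the left and from miR-365a-5p over miR-365b-5p on the right, with Novogene libraries right of the dashed line. Both ratios are positive in A-549, BE(2)-C and Hep-G2 and negative in MV3 and PANC-1, and in ES-2 the left ratio is negative and the right one positive.

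The miR-365-5p strands gave a second view of the same division. The log2 ratio of miR-365a-5p over miR-365b-5p was 6.07 and 6.03 in BE(2)-C, 2.67 and 3.54 in Hep-G2, 1.86 and 2.35 in A-549, -3.26 and -3.65 in MV3 and -2.44 in PANC-1. In these 5 lines it had the sign of the ratio above, to which miR-365b-5p contributed as well. ES-2 differed, with 7 reads of miR-365a-5p against 0 of miR-365b-5p in replicate 1 and 27 against 10 in replicate 2 (ratios of 2.38 and 1.25), while its miR-193a-5p exceeded the summed miR-193b strands in both libraries by 94 to 27 and 211 to 37 reads. ES-2 is thus the line in which the summed miR-193 strands and the miR-365-5p strands gave different signs. The miR-365-5p counts behind this are small. In A-549 the sign depended on the strands taken, since miR-193b-5p over miR-193a-5p alone was negative (-0.51).

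The paralogous 5p strands differ at 4 positions and were compared directly. The log2 ratio of miR-193b-5p over miR-193a-5p was 2.92 ± 0.15 in BE(2)-C, 1.06 ± 0.35 in Hep-G2, -0.51 ± 0.03 in A-549, -4.36 ± 0.60 in MV3 and -2.86 ± 0.22 in ES-2 (SD, n = 2), and -3.98 in PANC-1. It differed between lines by an exact permutation test of the F statistic with the 11 libraries assigned to lines in all 10395 possible ways (p = 0.000289, adjusted p = 0.000433 over 3 ratios). Among the 7 NEXTflex libraries, with 105 assignments and 0.00952 as the smallest p possible, the exact permutation test gave p = 0.0286 (adjusted p = 0.0429). The ratio thus differed between lines of one preparation by this test, but not every line stood apart. The single library of PANC-1 (-3.98) lay between MV3 replicate 1 (-3.94) and MV3 replicate 2 (-4.78).

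The log2 ratio of miR-365-3p over miR-193b-3p, whose hairpins lie next to each other on chromosome 16, was positive in all NEXTflex libraries and negative in all Novogene ones. It was 4.08 in PANC-1, 3.17 and 2.73 in MV3, 1.19 and 2.16 in ES-2 and 0.71 and 1.10 in A-549. It was -2.62 and -1.98 in BE(2)-C and -1.52 and -1.10 in Hep-G2. The exact permutation test gave p = 0.000192 over all libraries and p = 0.019 over the NEXTflex libraries (adjusted p = 0.000433 and 0.0429). Since the miR-365-3p reads include those of chromosome 17, the ratio mixes both clusters.

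The arms of the MIR193B hairpin were present in different proportion. The 3p strand made up 97.2% and 94.9% of the reads of both arms in BE(2)-C and 86.5% and 83.8% in Hep-G2. In A-549 it was 60.0% and 53.7%, in ES-2 51.9% and 35.1%, in MV3 33.3% and 55.1% and in PANC-1 17.8%. All Novogene libraries lay above all NEXTflex libraries. By the exact permutation test the log2 ratio of the arms differed between the lines over all libraries (p = 0.00173, adjusted p = 0.00173), but within the NEXTflex preparation the threshold was missed (p = 0.171, adjusted p = 0.171).

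For the miR-365 hairpins the direction was opposite, with less of the 3p arm in the Novogene libraries. MiR-365-3p made up 26.2% and 38.0% of the reads of both miR-365 arms in BE(2)-C and 45.9% and 49.3% in Hep-G2. It made up 79.9% and 83.3% in A-549, 82.9% and 64.1% in ES-2, 71.3% and 70.9% in MV3 and 61.3% in PANC-1. For miR-193b and for the summed miR-365 names the arm proportions thus split along the preparations, in which lines and preparations cannot be told apart. MIR193A, with only 2 to 18 reads of both arms in each Novogene library, is not covered by this. No test was run on the miR-365 arms.

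**Figure D4:**
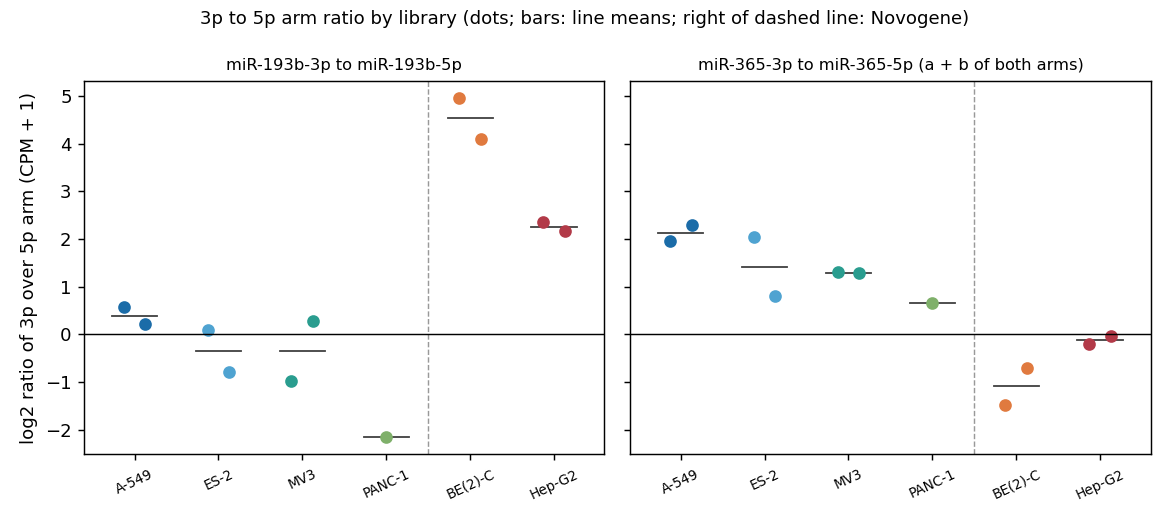
Log2 ratio of the 3p over the 5p arm in each library (dots, with line means as bars) for miR-193b on the left and for miR-365, names a and b summed, on the right. The Novogene libraries, right of the dashed line, have the highest miR-193b ratios (2.16 to 4.96) and the lowest miR-365 ratios (-1.48 to -0.04).

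Across the 6 lines the moderated F test of limma called all 6 tested members (adjusted p from 3.78e-07 for miR-193a-5p to 0.000138 for miR-365b-5p), in a comparison that called 99.3% of all 546 miRNAs tested. Over the 4 NEXTflex lines it also called all 6 (adjusted p from 0.000113 for miR-365b-3p to 0.0081 for miR-365b-5p), where 85.4% of 453 were called. With nearly all miRNAs called, these counts are not a result about the members. Of the arms at the same loci, miR-365a-5p passed both tests (adjusted p = 0.000359 and 0.0201). The second was lost without A-549 replicate 1 or 2 (0.106 and 0.0896) or MV3 replicate 1 or 2 (0.0628 and 0.0622).

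Between ES-2 and MV3, both of the NEXTflex preparation, all 6 tested members (5 of 5 distinct strands) were higher in MV3, in a contrast in which 32.8% of all miRNAs were called and 23.8% were called as higher in MV3. The median log2 difference of ES-2 minus MV3 was -3.36 over the members and -0.36 over all miRNAs tested. The difference was -5.44 ± 0.73 (SE) for miR-365b-5p, -3.61 ± 0.33 for miR-193a-5p and -2.11 for each miR-193b strand. MiR-365a-5p was not called (-0.16 ± 0.46, limma, adjusted p = 0.878).

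Between A-549 and ES-2, 5 of the 6 members (4 of 5 distinct strands) were called, all as higher in A-549, against 50.5% of all miRNAs called and 23.6% called as higher in A-549. MiR-193b-3p differed by 3.99 ± 0.33 (SE) and miR-193b-5p by 3.25 ± 0.35 (limma, adjusted p = 3.69e-05 and 0.000158), summed miR-365-3p by 3.23 ± 0.30. MiR-365b-5p differed by 2.16 ± 0.73 (limma, adjusted p = 0.0401). That last call was lost on leaving out any 1 library of A-549, MV3, BE(2)-C or Hep-G2 or ES-2 replicate 1 (adjusted p from 0.062 to 0.182) and held without ES-2 replicate 2. All lines share one estimate of the spread in this fit.

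Between A-549 and MV3 the members divided by chromosome. Of the 6, 4 were called (4 of 5 distinct strands) where 57.3% of all miRNAs were, and they were 2 higher in A-549 (miR-193b-3p and miR-193b-5p, 20.0% of all) and 2 higher in MV3 (miR-193a-5p and miR-365b-5p, 37.4% of all). MiR-193b-5p differed by 1.137 ± 0.35 (SE, limma, adjusted p = 0.0273). This call was lost without A-549 replicate 1 (0.0979), A-549 replicate 2 (0.0718) or MV3 replicate 2 (0.139). The miR-365-3p names, which can come from either chromosome, were not called.

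Between BE(2)-C and Hep-G2, the 2 Novogene lines, the outcome depended on the scaling. On CPM, 4 of 6 members (3 of 5 distinct strands) were called, all as higher in BE(2)-C, where 83.0% of all miRNAs were called and 74.7% were called as higher in BE(2)-C. The median difference over all miRNAs was 2.80 on the log2 scale, and that of the members was 1.73. With TMM factors the median over all miRNAs was 0.49, and 2 members were called, miR-193a-5p at -2.69 ± 0.32 (SE) and miR-193b-5p at -1.54, both as higher in Hep-G2 (limma, adjusted p = 0.000106 and 0.00379), where 64.3% of all miRNAs were called and 22.9% were called as higher in Hep-G2. MiR-193b-3p was higher in BE(2)-C by 3.42 ± 0.33 on CPM (limma, adjusted p = 2.8e-05) and by 0.47 with TMM factors (0.275). The CPM call of miR-193b-5p was lost without BE(2)-C replicate 2 (adjusted p = 0.0748) or Hep-G2 replicate 1 (0.11), and miR-193a-5p, at -0.71 on CPM without passing, passed without BE(2)-C replicate 2 (0.0163). Without BE(2)-C replicate 1, the library with high miR-122-5p, the same 4 members passed on CPM.

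**Figure D5:**
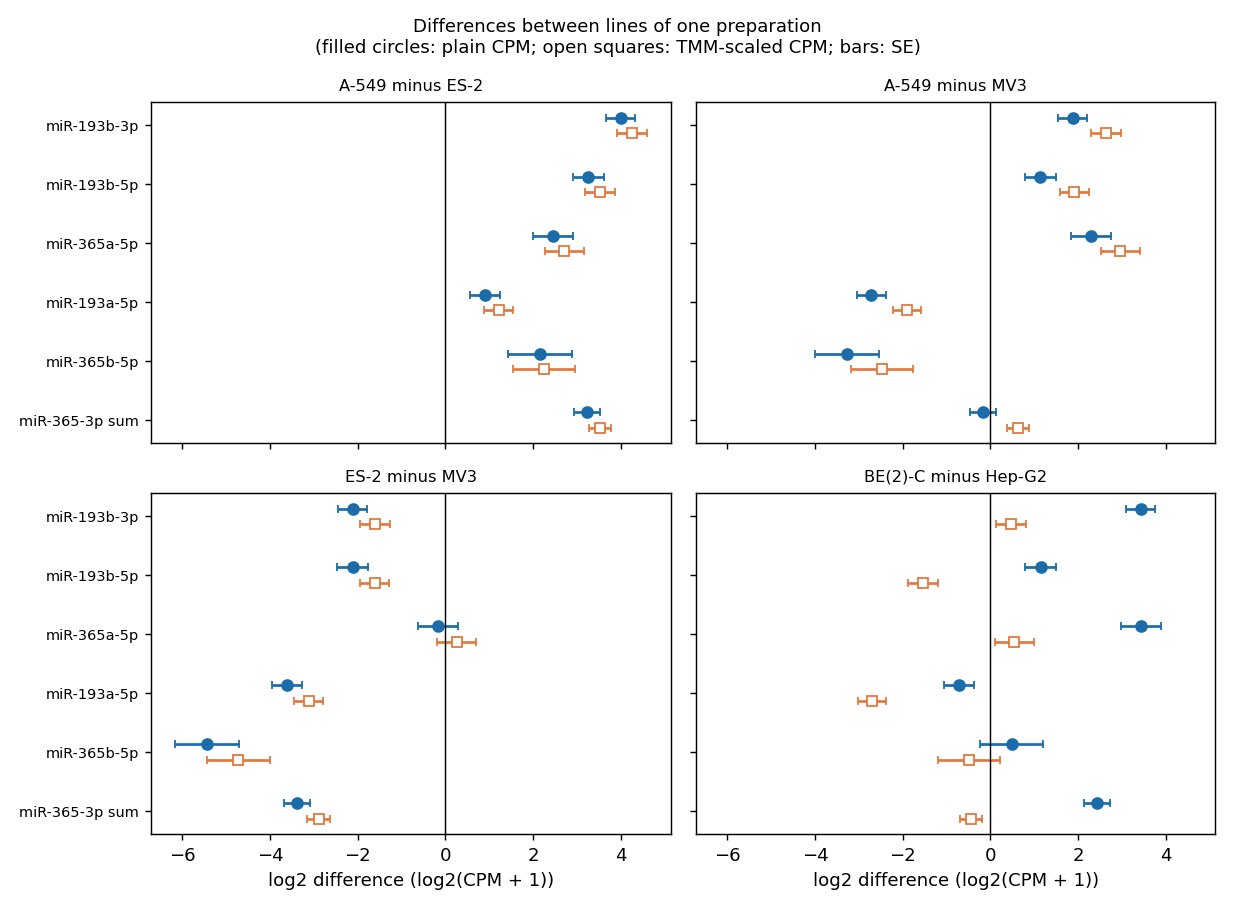
Log2 differences between lines of one preparation (x axis, first minus second line, log2(CPM + 1)) for 4 members, miR-365a-5p and summed miR-365-3p, with filled circles for plain CPM, open squares for TMM-scaled CPM and bars for the SE. All are positive for A-549 minus ES-2, the chromosome 17 strands are negative for A-549 minus MV3, and all points lie lower with TMM factors for BE(2)-C minus Hep-G2.

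For the 6 pairs that span the preparations the members are counted by name, with miR-365-3p under both of its names, on CPM unless stated. Of A-549 against BE(2)-C, 76.7% of all miRNAs were called, and 5 members were higher in A-549 (22.3% of all) and 1 in BE(2)-C (54.4%). Of MV3 against BE(2)-C, 78.0% were called, and 5 members were higher in MV3 (32.4%) and 1 in BE(2)-C (45.6%). The member higher in BE(2)-C was miR-193b-3p in both. Of ES-2 against BE(2)-C, 77.5% were called, and 1 member, miR-193a-5p, was higher in ES-2 (26.4%) and 3 in BE(2)-C (51.1%).

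Against Hep-G2, 6 members were called as higher in A-549 (67.6% of all miRNAs called, 55.7% as higher in A-549) and 5 as higher in MV3 (69.6% and 58.2%). With TMM factors, 5 were called as higher in A-549 (69.0% called, 37.9% as higher in A-549), without miR-193b-3p. Of MV3 against Hep-G2, 63.7% were then called, and 4 members were higher in MV3 (34.1%) and 1, miR-193b-3p, in Hep-G2 (29.7%). Of ES-2 against Hep-G2, 60.8% were called, and 4 members were higher in ES-2 (48.5%) and 1 in Hep-G2 (12.3%). With TMM factors this turned to 1 member higher in ES-2 (30.4%) and 4 in Hep-G2 (30.8%), with 61.2% of all miRNAs called. Line and preparation cannot be told apart in these 6 pairs.

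How far strands of one locus move together was described by Pearson's r over the 6 line means of log2(CPM + 1), points that share their library, depth and preparation with each other. MiR-193a-5p and miR-365b-5p, from neighbouring hairpins of chromosome 17, had r = 0.91, and miR-193b-3p and miR-365a-5p, from neighbouring hairpins of chromosome 16, had r = 0.83. The value was 0.17 for the 2 arms of MIR193B and -0.38 for miR-193b-3p with miR-193a-5p. MiR-193b-5p was closest to summed miR-365-3p (r = 0.96). With TMM factors these values became 0.89, 0.88, 0.12, -0.66 and 0.92 in the same order. MiR-193b-5p also had r = 0.83 with miR-365b-5p and 0.81 with miR-193a-5p, both of chromosome 17 (0.65 and 0.63 with TMM factors). With miR-365a-5p of its own locus it had r = 0.29 (0.14 with TMM factors). For this strand r was thus not higher within the locus.

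Of the MIR4725 arms, which share the host transcript of MIR365B, miR-4725-3p had 11.9 and 5.16 CPM in MV3 and 1.498 and 0.485 CPM in A-549, and miR-4725-5p had 1.70 and 0.645 CPM in MV3. Neither had a read in ES-2, PANC-1, BE(2)-C or Hep-G2. PANC-1, the line with the most miR-365b-5p, thus had no read of either arm, with 3 reads corresponding to 0.308 CPM there.

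Among the 539 other miRNAs tested, the profiles over the 6 line means most like miR-193a-5p belonged to miR-28-5p (r = 0.98), miR-6803-3p (0.96) and miR-374a-3p (0.95). Those most like miR-193b-3p were miR-24-1-5p (0.93), miR-377-3p (0.88) and miR-145-3p (0.88), and those most like summed miR-365-3p were miR-181b-2-3p (0.95), miR-589-3p (0.93) and miR-23b-3p (0.92). MiR-28-5p stood at 891 CPM in PANC-1 and 721 CPM in MV3, by line mean, against 31.2 CPM in Hep-G2 and 12.2 CPM in BE(2)-C. MiR-24-1-5p stood at 79.4 CPM in BE(2)-C and 9.91 CPM in A-549, with no read in ES-2. With only 6 points and as many as 539 candidates, high values arise easily, and the choice changed with the scaling.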

How the data were processed

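Small RNA-seq tables of 11 libraries from 6 lines were used. Per the labels and the study's methods, replicates were biological (none for PANC-1). The submitters' processing notes name cutadapt 1.14, Bowtie2 2.3.2, SAMtools 1.5, featureCounts 1.5.3, edgeR 3.30.3 and the build hg38. How reads that match several miRNA copies were counted is not given in the sources used here. The values deposited by the authors were CPM for PANC-1. For the other 5 lines the authors deposited a scaled signal, which is CPM divided by a factor set within each table. In every library 100% of nonzero values were whole multiples of 1 read. The tolerance was 0.02, widened in proportion to the read count, so the check could not fail at the very highest counts. Whole reads were thus recovered, rows of one name summed, and CPM recomputed per library.

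Members and lists were chosen with earlier results of these data known. The tests used limma 3.58.1 on log2(CPM + 1) and took in every miRNA whose mean in a line was 10 CPM or more (trend, two-sided contrasts, Benjamini-Hochberg adjustment over all miRNAs tested in a contrast, threshold 0.05). This scale understates differences of low miRNAs. PANC-1 with 1 library entered the F tests but no pair. The rule for named miRNAs took the 7 members, miR-365a-5p, both miR-4725 arms and the 3 most similar miRNAs for each of 3 profiles, and miR-148a-3p, miR-9-5p, miR-122-5p and miR-211-5p were named after their values were seen. Ratios were tested by exact permutation of the F statistic. Scripts were tested on simulated data. Sequences came from RefSeq (GRCh38.p14) and gene models from GENCODE on GRCh38. Alternatives were TMM factors, quantile normalization, other pseudocounts and filters, a replicate block, edgeR 4.0.16, DESeq2 1.42.0 and leaving out single libraries. Replicates of a line differed beyond sampling noise (chi-square per degree of freedom, over miRNAs with 25 or more reads in both together). The value was 1094 in BE(2)-C and ran from 10.1 in ES-2 to 82.9 in Hep-G2 among the other lines with 2 libraries.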

Additional observations from a re-analysis of the deposited data

Results flagged for a closer look

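Of the ratios formed within a library, 3 were tested, and all 3 differed between the lines by the exact permutation test over all libraries. These libraries span both preparations, so line and preparation cannot be told apart in that test. The adjusted p was 0.000433 for miR-193b-5p over miR-193a-5p, 0.000433 for miR-365-3p over miR-193b-3p and 0.00173 for miR-193b-3p over miR-193b-5p. Within the NEXTflex preparation the same test gave an adjusted p of 0.0429 for miR-193b-5p over miR-193a-5p and 0.0429 for miR-365-3p over miR-193b-3p. The ratio of the miR-193b arms missed the threshold there (0.171).

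The ratio of chromosome 16 to chromosome 17 strands had the same sign in all libraries of a line and opposite signs between lines. Its mean on the log2 scale was 6.88 in BE(2)-C, 3.38 in Hep-G2 and 0.60 in A-549, against -2.12 in ES-2, -3.66 in MV3 and -3.87 in PANC-1. This difference in sign was not tested, and for BE(2)-C and Hep-G2 line and preparation cannot be told apart.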

How the results depend on the processing

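All 6 tested members passed both F tests under every alternative run that tested them, including edgeR on the recovered reads. DESeq2 was run for the 6 lines only, where they passed as well. A filter of 100 CPM left 313 miRNAs called over the 6 lines including all 5 members that it kept, and no filter gave 837. Over the members and miR-365a-5p, in both F tests and all 10 pairs, leaving out single libraries kept a call 656 times, ended it 36 times and added one 6 times, and 114 values were called neither way. Scaling mattered most, and directions relative to Hep-G2 and BE(2)-C turned. With TMM factors the log2 differences against Hep-G2 became -0.048 and -2.69 for miR-193b-3p (A-549 and MV3), -0.26 for miR-365a-5p (A-549), -1.50, -1.34 and -1.15 for miR-193b-5p, miR-365a-3p and miR-365b-3p (ES-2), -1.54 for miR-193b-5p and -0.42 for each miR-365-3p name (BE(2)-C minus Hep-G2), and with the miR-365-3p names summed as well -1.27 (ES-2 minus Hep-G2) and -0.45 (BE(2)-C minus Hep-G2) for their sum. With quantile normalization they became 0.37 and 0.0072 for miR-193b-3p and miR-365a-5p (A-549 minus BE(2)-C), 1.30, 0.64 and 0.83 for miR-193b-5p, miR-365a-3p and miR-365b-3p (ES-2 minus BE(2)-C), -0.35 and -0.74 for miR-193b-3p and miR-365a-5p (A-549 minus Hep-G2), -0.95, -0.81 and -0.60 for miR-193b-5p, miR-365a-3p and miR-365b-3p (ES-2 minus Hep-G2), -2.21 for miR-193b-3p (MV3 minus Hep-G2), and -0.71, -2.25, -1.45, -1.43 and -0.75 for miR-193b-3p, miR-193b-5p, miR-365a-3p, miR-365b-3p and miR-365a-5p (BE(2)-C minus Hep-G2).

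The chromosome 16 to chromosome 17 ratio was 0.60 in A-549, where the 5p paralogs alone (miR-193b-5p over miR-193a-5p) gave -0.51. Under the alternatives run on it, the ratio kept its sign in all lines except ES-2. ES-2 turned to 1.82 when the ratio was formed from miR-365a-5p and miR-365b-5p. In that form it was 2.10 in A-549, -2.44 in PANC-1 and 6.05 in BE(2)-C. With miR-365a-5p added it was 0.86 in A-549, -3.49 in PANC-1, 7.38 in BE(2)-C and 3.80 in Hep-G2. With the miR-365-3p names added it was -2.43 in MV3, -2.70 in PANC-1, 3.40 in BE(2)-C and 2.19 in Hep-G2. That form puts each 3p name on its named chromosome, which the reads cannot show, and with names divided near evenly it moves towards 0 by construction. In BE(2)-C it was 7.24, 7.60 and 5.44 with pseudocounts of 0.5, 0.1 and 5 CPM, and in Hep-G2 3.92 and 2.26 with 0.1 and 5 CPM. The ratio of the miR-193b arms gave an adjusted p of 0.171 in the NEXTflex libraries. Of the 9 most similar miRNAs, 3 remained with TMM factors and 4 with Spearman's correlation. The causes were not tested, apart from the changed sums and pseudocounts themselves. Depth limits the BE(2)-C and Hep-G2 ratios, whose chromosome 17 sums rest on 9 to 22 reads.

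Same-numbered libraries did not pair (correlations of deviations -0.053 to 0.109). With the replicate block, 535 miRNAs were called over the 6 lines and 19 of the 24 member contrasts within a preparation, and A-549 against ES-2 gave 0.0449 for miR-193a-5p and 0.0553 for miR-365b-5p.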
